A study of Mus musculus with 6 samples.

Results

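The genes described here are the 4 simple keratins *Krt7*, *Krt8*, *Krt18* and *Krt19* together with *Sfn*, *Lgals3*, *Areg*, *Hbegf*, *Anxa1* and *Plaur*, which are known from the transitional state that alveolar type 2 (AT2) cells pass through on their way to type 1 (AT1) cells. They were found by gene symbol, and all 10 were among the 24421 genes of the count table. The study asked how enhanced BMP signaling in AT2 cells changes their expression, and sequenced poly(A) RNA of sorted AT2 cells from 3 control and 3 caBmpr1a mice. Control mice were *Sftpc-CreERT2/+; R26-tdTomato/+* and caBmpr1a mice were *Sftpc-CreERT2/+; R26-tdTomato/R26-caBmpr1a*, where *caBmpr1a* encodes a constitutively active BMP type I receptor. Both groups thus carried the tamoxifen-dependent Cre under the AT2 gene *Sftpc* and the red lineage label, and the label reports recombination of the tdTomato allele, not of the *caBmpr1a* allele. In each group 1 mouse was 16 weeks old and the other two were 12 weeks old.

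Keratins form the intermediate filaments of epithelial cells, and each filament is built from pairs of a type II keratin (here *Krt7* and *Krt8*) with a type I keratin (here *Krt18* and *Krt19*). Simple keratins mark single-layered epithelia such as the alveolar lining. In injured lung, AT2 cells on the way to AT1 cells pass through a state named for high *Krt8*, in which they also express *Sfn*, *Lgals3*, *Areg*, *Hbegf*, *Anxa1* and *Plaur*. The mice sampled here are not described as injured in the labels.

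The libraries held between 21554249 and 28440227 counts, so that 3 counts corresponded to between 0.0976 and 0.138 CPM (counts scaled to library size, after TMM scaling between libraries). The BMP target *Id1* was at 18.5, 20.8 and 19.2 CPM in the control libraries and 124, 177 and 411 CPM in the caBmpr1a libraries, while *Bmpr1a* did not separate the groups (log2 fold change -0.015). The 10 AT2 markers summed to between 117532 and 132649 CPM in control and between 100315 and 112240 CPM in caBmpr1a libraries. Control replicate 1 and caBmpr1a replicate 3 had 176 and 146 CPM on 4 Y-linked genes, against 0 in the other four libraries. The library of caBmpr1a replicate 3 stood apart for the genes described here, being the highest of the 6 for 9 of the 10, against 27.5% of all genes tested. Results are therefore also given without it and within the 4 libraries free of Y-linked reads.

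All 10 genes passed the expression filter and were tested among 16723 genes. None passed the threshold in edgeR's quasi-likelihood test, which asked for an adjusted p under 0.05 and at least a doubling on the log2 scale (a log2 value over 1), where 0.227% of the genes tested were called higher and 0.012% lower. *Krt7*, *Sfn* and *Plaur* had all 3 caBmpr1a values above all 3 control values, which held for 7% of the genes tested, and no member had all 3 below (10.1%). The same 3 genes had an unadjusted p under 0.05 in the higher direction, as did 4.62% of all genes, and no member had one in the lower direction (5.05%). A log2 fold change over 1, whatever the p, was reached by *Sfn* and *Plaur*, as by 4.25% of all genes. Without caBmpr1a replicate 3, 3 members had an unadjusted p under 0.05 in the higher direction (4.6% of all genes) and *Krt8* had one in the lower. Within the 4 libraries free of Y-linked reads, 6 members had one in the higher direction (6.26%) and *Krt8* again in the lower. For these sets the share of all genes in the lower direction was not computed. Both sets leave out caBmpr1a replicate 3, the highest library for *Krt8*. The fitted log2 fold change was above 0 for 8 members (48.8% of all genes), and the median over the 10 was 0.52, against -0.0096 over all genes tested. Without caBmpr1a replicate 3, 6 members were above 0 with a median of 0.26, against -0.0035 over all genes. Within the 4 libraries free of Y-linked reads 6 were above 0 with a median of 0.41, against 0.017 over all genes. The share of all genes above 0 was not computed for these sets. Since these are RNA levels of sorted cells in bulk, more cells with a transcript and more transcript per cell cannot be told apart.

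**Figure D1:**
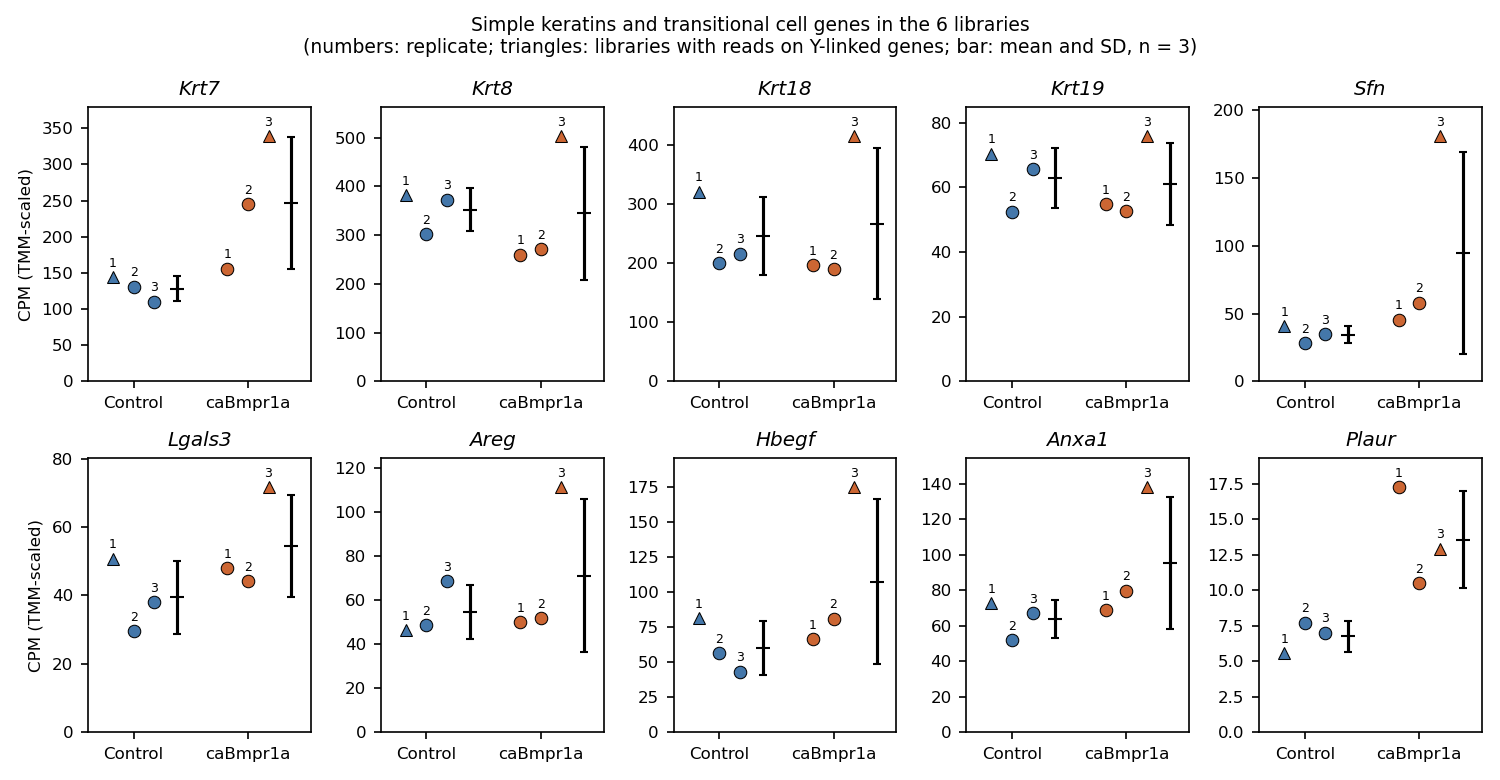
Each panel plots one gene in CPM after TMM scaling, with 1 point per library (the number is the replicate, triangles are the libraries with reads on Y-linked genes) and a bar for the mean and SD of 3 libraries. In the caBmpr1a group, replicate 3 is the highest point in every panel except *Plaur*, and the groups do not overlap for *Krt7*, *Sfn* and *Plaur*.

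In the control libraries the keratins led the group when levels are compared per length, in CPM per kilobase of exon. *Krt8* had a level of 195 ± 24.3 and *Krt18* of 175 ± 47.0 CPM per kilobase (SD, n = 3), which placed them at percentiles 98.4 and 98.2 of the genes tested, and these neighbours did not differ beyond their spread. *Krt7* followed at a level of 81.0 ± 10.8 CPM per kilobase, below every value of *Krt18*. *Anxa1* (45.8 ± 7.79), *Krt19* (45.7 ± 6.76) and *Areg* (45.4 ± 10.3 CPM per kilobase) came next and overlapped each other. *Lgals3* (28.1 ± 7.56), *Hbegf* (25.5 ± 8.12) and *Sfn* (21.4 ± 3.88 CPM per kilobase) formed a lower, again overlapping set. *Plaur* was lowest with 4.84 ± 0.787 CPM per kilobase, at percentile 49.2. Transcripts of these genes were thus present in the control libraries of sorted AT2 cells, with *Krt8* and *Krt18* at the top of the order. Bulk values do not show which cells held them or whether any cell was in the transitional state.

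The type II keratin *Krt7* is encoded on chromosome 15 (mm10, 101412403 to 101427806, forward strand). Its values were 144, 131 and 110 CPM in control replicates 1, 2 and 3 and 156, 245 and 339 CPM in caBmpr1a replicates 1, 2 and 3. Every caBmpr1a library lay above every control library, and the lowest of them was close to the highest control. The log2 fold change was 0.94 (SE 0.26, edgeR adjusted p = 0.299), with a 95% interval from 0.35 to 1.53. Without caBmpr1a replicate 3 it was 0.68, and within the 4 libraries free of Y-linked reads it was 0.77 (edgeR adjusted p = 0.441 and 0.154). Between caBmpr1a replicate 3 and control replicate 1, the log2 ratio was 1.23, with no test for 1 library against 1. *Krt7* passed an adjusted p of 0.05, without reaching a fold change of 2, in DESeq2 (log2 fold change 0.95, adjusted p = 0.0149) and with a term for Y-linked reads in the model (0.91, edgeR adjusted p = 0.0393).

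The other three simple keratins did not follow *Krt7*. *Krt8*, the type II keratin that gives the transitional state its name (chromosome 15, 101996711 to 102004342, reverse strand), had 382, 302 and 373 CPM in the control libraries and 260, 271 and 503 CPM in the caBmpr1a libraries. Of the caBmpr1a libraries, replicates 1 and 2 were below every control and replicate 3 was above every control. Its log2 fold change was -0.031 (SE 0.26, edgeR adjusted p = 0.977), with a 95% interval from -0.62 to 0.55, which spans folds from 0.653 to 1.47. Without caBmpr1a replicate 3 it was -0.37 (edgeR adjusted p = 0.611). The sign of the *Krt8* value was not stable, and was positive with upper-quartile scaling, with library size only, with a higher count filter and when control replicate 1 or 3 or caBmpr1a replicate 1 or 2 was left out.

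*Krt18* is the type I partner of *Krt8* and its neighbour on chromosome 15 (102028216 to 102032026, forward strand), 23.9 kb away. It was at 321, 200 and 216 CPM in the control libraries and at 197, 189 and 414 CPM in the caBmpr1a libraries. The groups overlapped, with the 2 highest values in control replicate 1 and caBmpr1a replicate 3. The log2 fold change was 0.12 (SE 0.32, edgeR adjusted p = 0.92), with a 95% interval from -0.61 to 0.86, and -0.30 without caBmpr1a replicate 3. Its sign was negative within the 4 libraries as well. *Krt19*, the second type I keratin (chromosome 11, 100140811 to 100145919, reverse strand), was at 70.4, 52.5 and 65.6 CPM in control and at 54.9, 52.6 and 75.8 CPM in caBmpr1a libraries. Its groups overlapped too, with a log2 fold change of -0.039 (SE 0.17, edgeR adjusted p = 0.954) and a 95% interval from -0.44 to 0.36, and its sign changed with the same scalings as that of *Krt8*.

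**Figure D2:**
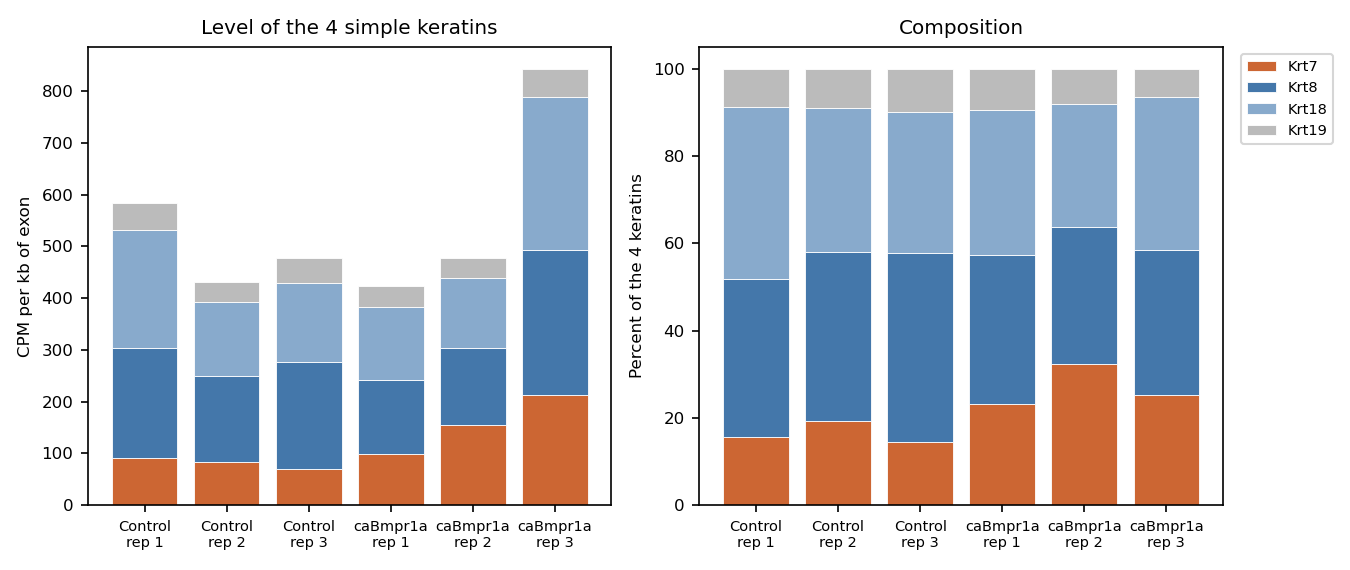
Stacked bars give the 4 simple keratins in each of the 6 libraries, on the left as CPM per kilobase of exon and on the right as a percentage of their sum. The *Krt7* share is between 14.5% and 19.2% in control libraries and between 23.2% and 32.3% in caBmpr1a libraries, and the summed level is highest in caBmpr1a replicate 3.

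The share of *Krt7* in the sum of the 4 simple keratins (per length) described this difference within each library, where scaling between libraries has no part. It was 15.6%, 19.2% and 14.5% in control replicates 1, 2 and 3 and 23.2%, 32.3% and 25.3% in caBmpr1a replicates 1, 2 and 3. The groups did not overlap, also with caBmpr1a replicate 3 left aside. The *Krt8* share was 39.5% ± 3.48 in control and 32.8% ± 1.34 in caBmpr1a libraries (SD, n = 3), again without overlap. The shares are parts of one sum, so a higher *Krt7* share lowers the others, and this is no separate result for *Krt8*. The ratio of *Krt8* to *Krt18* per length, which *Krt7* does not enter, was 1.15 ± 0.21 in control and 1.03 ± 0.085 in caBmpr1a libraries, with overlap. The *Krt18* share (34.9% ± 3.84 and 32.2% ± 3.52) and the *Krt19* share (9.22% ± 0.673 and 8.0% ± 1.45) overlapped. The ratio of *Krt7* to *Krt8* per length was 0.42 ± 0.079 in control and 0.83 ± 0.18 in caBmpr1a libraries, and in caBmpr1a replicate 2 it reached 1.03. The ratio of both type II to both type I keratins was 1.28 ± 0.17 and 1.5 ± 0.22, which overlapped between the groups. These shares are descriptions and were not tested.

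*Sfn* encodes 14-3-3 sigma, an adaptor protein of epithelial cells that is known as a target of p53 and binds keratins (chromosome 4, 133600556 to 133602168, reverse strand). It was at 40.7, 28.2 and 34.7 CPM in the control libraries and at 45.3, 58.0 and 181 CPM in the caBmpr1a libraries. All 3 caBmpr1a values lay above the control values, and replicate 3 was far above the other two. The log2 fold change was 1.46, the largest of the 10 members (SE 0.47, edgeR adjusted p = 0.387), with a 95% interval from 0.37 to 2.54. It dropped to 0.63 without caBmpr1a replicate 3 (edgeR adjusted p = 0.4) and was 0.75 within the 4 libraries (edgeR adjusted p = 0.0909). Each of the other two caBmpr1a libraries thus stayed above the controls, with a smaller difference.

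*Plaur* encodes the receptor for urokinase, which holds that protease at the cell surface (chromosome 7, 24462500 to 24475873, forward strand). Its values were 5.56, 7.72 and 7.01 CPM in the control and 17.2, 10.5 and 12.9 CPM in the caBmpr1a libraries, from 124 to 184 and from 271 to 397 raw counts. The groups did not overlap, and here replicate 1 was the highest caBmpr1a library. Its log2 fold change was 1.00 (SE 0.23, edgeR adjusted p = 0.19), with a 95% interval from 0.48 to 1.52, and it was 1.07 without caBmpr1a replicate 3. *Plaur* was the 1 member called by DESeq2 (log2 fold change 1.01, adjusted p = 0.0122, against 0.873% of the genes that DESeq2 gave an adjusted p) and with the covariate for Y-linked reads (1.01, edgeR adjusted p = 0.042). Myeloid cells are known to express *Plaur*, and caBmpr1a replicate 1 was also the highest library for 7 of 8 macrophage and monocyte markers and for 6 of 6 neutrophil markers. The neutrophil markers summed to between 7.40 and 13.1 CPM in control libraries and to 44.9, 14.2 and 8.46 CPM in caBmpr1a replicates 1, 2 and 3. The macrophage and monocyte markers summed to between 69.6 and 72.0 CPM in control and to 158, 90.3 and 53.2 CPM in caBmpr1a libraries, and none of these markers was at 0 in all libraries. In caBmpr1a replicate 3, where the neutrophil sum was within and the macrophage sum below the control range, *Plaur* was at 12.9 CPM, against 7.72 CPM in the highest control. The part of these cells in the *Plaur* values was not tested.

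*Hbegf* and *Areg* encode membrane-anchored ligands of the EGF receptor that are released by proteases. *Hbegf* (chromosome 18, 36504927 to 36515805, reverse strand) had 81.5, 56.7 and 43.4 CPM in control and 66.7, 81.2 and 175 CPM in caBmpr1a libraries, with overlapping groups. Its log2 fold change was 0.83 (95% interval -0.013 to 1.68, edgeR adjusted p = 0.523) and 0.33 without caBmpr1a replicate 3. Within the 4 libraries free of Y-linked reads it was 0.60. With the covariate for Y-linked reads it was 0.76 and passed an adjusted p of 0.05 below a fold change of 2 (edgeR adjusted p = 0.041). *Areg* (chromosome 5, 91139615 to 91148432, forward strand) had 46.2, 48.6 and 68.7 CPM in control and 49.97, 51.9 and 111 CPM in caBmpr1a libraries. In this gene only replicate 3 of the caBmpr1a group exceeded the highest control. The log2 fold change of *Areg* was 0.38 (95% interval -0.33 to 1.10, edgeR adjusted p = 0.719), with -0.062 when caBmpr1a replicate 3 was left out. Both ligands are known to respond to cell stress. Immediate early genes, listed as a sign of cell dissociation, were also highest in caBmpr1a replicate 3 for 6 of 11, and 1 of the 11 had an unadjusted p under 0.05. The list sum lay between 14657 and 19188 CPM in control and between 14466 and 18043 CPM in caBmpr1a libraries. Without its 2 heat shock genes (left out after the values were seen), the remaining 9 summed to 11125, 9077 and 8730 CPM in control and to 8615, 9531 and 13887 CPM in caBmpr1a replicates 1, 2 and 3, with a median log2 fold change of 0.071. Replicate 3, the highest library for *Hbegf* and *Areg*, thus exceeded every control in this sum of 9 genes. In the sum of all 11 it did not, as control replicate 1 was highest there. The part of these genes in the values of the ligands was not tested.

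*Lgals3*, encoding the sugar-binding protein galectin-3 (chromosome 14, 47373860 to 47386167, forward strand), was at 50.7, 29.6 and 38.1 CPM in control and at 48.0, 44.1 and 71.6 CPM in caBmpr1a libraries. Its log2 fold change was 0.47 (95% interval -0.079 to 1.01, edgeR adjusted p = 0.577). *Anxa1*, encoding a calcium-dependent phospholipid-binding protein known for damping inflammation (chromosome 19, 20373434 to 20390671, reverse strand), was at 72.8, 51.8 and 67.2 CPM in control and at 68.8, 79.8 and 138 CPM in caBmpr1a libraries. The log2 fold change of *Anxa1* was 0.58 (95% interval -0.011 to 1.17, edgeR adjusted p = 0.526). The groups overlapped for both genes, and without caBmpr1a replicate 3 both differences were smaller, at 0.26. Within the 4 libraries free of Y-linked reads, *Lgals3* was at 0.47 and *Anxa1* at 0.35.

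**Figure D3:**
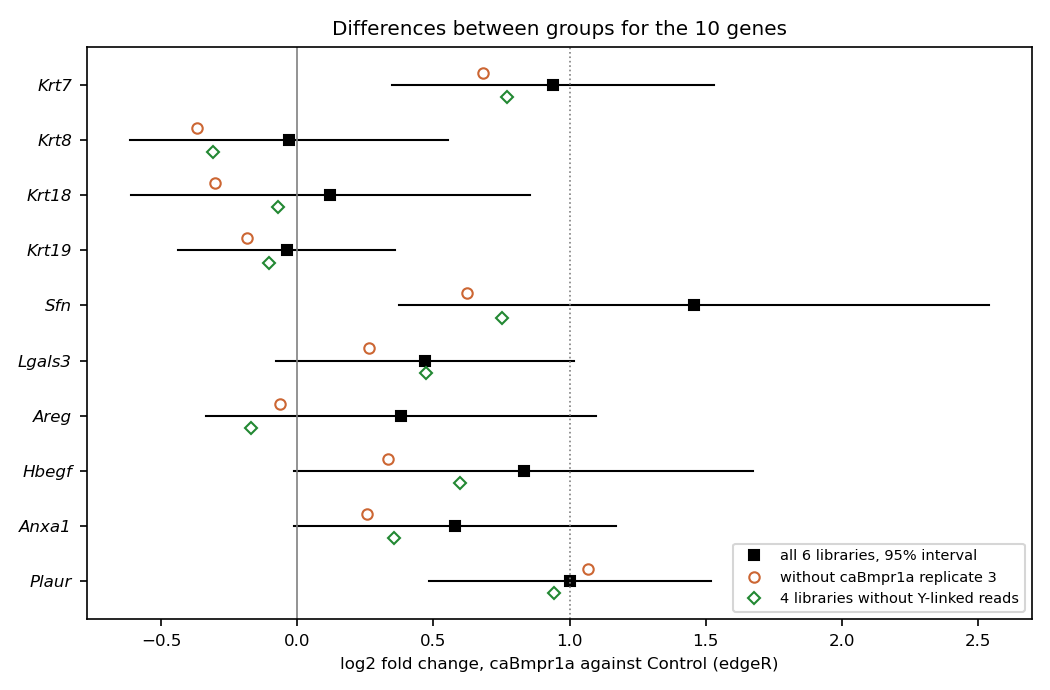
Squares are the log2 fold changes (caBmpr1a against control, edgeR) of the 10 genes with their 95% intervals, circles are the values without caBmpr1a replicate 3 and diamonds those within the 4 libraries free of Y-linked reads. The dotted line marks a fold change of 2. The intervals of *Krt7*, *Sfn* and *Plaur* lie above 0, and for *Krt8*, *Krt18*, *Krt19* and *Areg* the circles and diamonds lie below 0.

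The members also differed in how they varied among libraries of one group. The coefficient of variation was larger in the caBmpr1a than in the control group for all 10, against 47.0% of all genes tested. This rested on caBmpr1a replicate 3, the highest library for 9 of the 10. Without it the coefficient was larger for 2 of the 10 (*Krt7* and *Plaur*), against 27.0% of all genes. That of *Krt8* was then 2.92%, from caBmpr1a replicates 1 and 2 only, against 12.5% in 3 control libraries. Leaving out the highest library lowers the spread by itself, so these values only describe. In all 3 caBmpr1a libraries the coefficient ranged from 20.9% for *Krt19* to 78.9% for *Sfn*, where the median of all genes was 16.8%. In control libraries it ranged from 12.5% for *Krt8* to 31.9% for *Hbegf*, around a median of 17.7%. For 5 members (*Krt8*, *Krt18*, *Krt19*, *Lgals3* and *Hbegf*), control replicate 1 and caBmpr1a replicate 3, the libraries with reads on Y-linked genes, were both above the other 4 libraries, as in 19.5% of all genes, and for *Hbegf* the margin was 81.5 against 81.2 CPM. The immediate early genes had their 2 highest sums in these libraries as well. The library of caBmpr1a replicate 3 had the lowest sum of AT2 markers (100315 CPM) and the highest sum of 6 mesothelial markers (47.2 CPM). In control replicates 1, 2 and 3 the mesothelial sum was 27.3, 34.0 and 16.0 CPM. Control replicate 2 was thus the highest control in this sum, but the lowest for *Krt8*, *Krt18* and *Krt19*, and between the others for *Krt7*. Mesothelial cells are rich in simple keratins. Their defining markers were low but present in all groups, and 5 of 6 were highest in caBmpr1a replicate 3 (*Upk3b*, at 8.70, 9.47 and 4.26 CPM in control and 7.29, 8.69 and 17.97 CPM in caBmpr1a libraries, named after its values were seen). The part of these differences in the keratin values was not tested.

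Over the 6 libraries, *Krt8* was closest among the members to *Krt19* and *Krt18*. The root mean square difference of mean-centred log2 CPM was 0.15 and 0.19, against 0.54 between *Krt8* and *Krt7*. *Krt7* was closest to *Hbegf* (0.25) and *Anxa1* (0.28). Among all genes tested, those most like *Krt8* over the 6 libraries were *Mboat2* (0.055), *Grasp* (0.073) and *Dnaja1* (0.074), where the median gene differed by 0.45. Those most like *Krt7* were *Crym* (0.064), *4930415O20Rik* (0.082) and *Wipf3* (0.13), against a median of 0.63. *Crym* was at 2.65, 2.14 and 2.02 CPM in control and at 2.61, 4.50 and 5.99 CPM in caBmpr1a libraries, and *4930415O20Rik* was below 1 CPM throughout. *Mboat2* was low too, between 0.776 and 1.56 CPM over the 6 libraries. These genes were picked as the closest of all tested, and their closeness was not tested.

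Promoters are shown for the 3 genes whose groups did not overlap and, beside them, for *Krt8*, whose groups did. The 250 bases before the start of each gene are printed 5′ to 3′ on its own strand (RefSeq, GRCm38.p6). These genes were picked by their values here, and a link of promoter sequence to the values was not tested. Capitals mark matches, on either strand, to TGANTCA (AP-1), GGNGCC (a GC-rich SMAD element), CATTCC (TEAD) or GGGCGG (SP1). The windows are 15:101412153-101412402 for *Krt7*, 15:102004343-102004592 for *Krt8*, 4:133602169-133602418 for *Sfn* and 7:24462233-24462482 for *Plaur*, with *Krt8* and *Sfn* on the reverse strand.
Krt7: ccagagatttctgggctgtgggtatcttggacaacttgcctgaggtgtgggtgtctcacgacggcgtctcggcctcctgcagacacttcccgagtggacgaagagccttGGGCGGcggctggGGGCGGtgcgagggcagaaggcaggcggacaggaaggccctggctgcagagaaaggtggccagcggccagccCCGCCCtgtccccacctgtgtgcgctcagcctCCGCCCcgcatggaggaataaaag
Krt8: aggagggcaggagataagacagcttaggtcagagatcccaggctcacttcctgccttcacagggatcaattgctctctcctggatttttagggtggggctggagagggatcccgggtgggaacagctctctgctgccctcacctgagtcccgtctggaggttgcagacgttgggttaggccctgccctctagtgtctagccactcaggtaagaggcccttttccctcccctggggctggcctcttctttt
Sfn: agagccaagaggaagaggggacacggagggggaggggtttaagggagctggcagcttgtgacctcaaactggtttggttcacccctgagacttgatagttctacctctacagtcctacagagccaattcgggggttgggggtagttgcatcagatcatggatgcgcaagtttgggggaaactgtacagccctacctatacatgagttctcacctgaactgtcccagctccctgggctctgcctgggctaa
Plaur: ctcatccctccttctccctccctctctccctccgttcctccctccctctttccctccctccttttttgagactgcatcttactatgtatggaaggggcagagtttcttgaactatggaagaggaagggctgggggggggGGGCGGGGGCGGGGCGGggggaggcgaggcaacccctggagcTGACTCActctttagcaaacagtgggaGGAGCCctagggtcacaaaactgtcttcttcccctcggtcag
The *Krt7* window held 4 matches to GGGCGG, and *Plaur* held 3, together with 1 match to TGANTCA and 1 to GGNGCC. Neither the *Krt8* nor the *Sfn* window held any of the 4 motifs. Windows of other members whose groups overlapped, not printed here, did hold some. Those of *Lgals3* and *Areg* each held 1 match to GGGCGG and 1 to GGNGCC, that of *Krt18* held 2 to GGNGCC and that of *Anxa1* 1 to CATTCC. Of 32851 promoter windows of this length, 32.7% held GGGCGG, 49.7% GGNGCC, 12.6% CATTCC and 6.75% TGANTCA. The 3 genes whose groups did not overlap thus shared none of these motifs. The windows of *Krt7*, *Krt8*, *Sfn* and *Plaur* were 66.0%, 58.0%, 54.4% and 59.6% G and C, above the median of 52.4%. RefSeq windows were matched for 8 of the 10 members.

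Around these members, the other genes of their families were followed in lists. Of 48 other keratins in the table, 15 were tested, 12 of them with a log2 fold change above 0, and their median was 0.19. None was called, and 2 (*Krt79* and *Krt83*) had an unadjusted p under 0.05 in the higher and 1 (*Krt23*) in the lower direction. *Krt23*, a type I keratin, was the most abundant of these, at 135 ± 2.38 CPM in control and 100 ± 24.3 CPM in caBmpr1a libraries (SD, n = 3, log2 fold change -0.44, edgeR adjusted p = 0.476). *Krt83*, which starts 3.68 kb after *Krt7* and shares exon sequence with the overlapping gene *Krt85* of the table, so that its counts are uncertain, was at 4.30, 3.60 and 4.53 CPM in control and at 4.31, 6.17 and 21.1 CPM in caBmpr1a libraries, with the same order of caBmpr1a libraries as *Krt7*. *Krt79* was at 1.44 ± 0.311 and 3.72 ± 2.13 CPM. Of 11 desmosome and keratin linker genes, which anchor the filaments to the membrane, none was called and none had an unadjusted p under 0.05. Their median log2 fold change was 0.032, with *Pkp2* (plakophilin 2) at 70.8 ± 3.55 and 61.5 ± 2.11 CPM.

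Among other genes known from the transitional state, 17 of 18 were tested and none was called. Their median log2 fold change was 0.12, with 4 members past an unadjusted p of 0.05 in the higher and 1 in the lower direction. *Cldn4*, a tight junction claudin of this state, had a fitted log2 fold change of 1.60 (edgeR adjusted p = 0.461), resting on caBmpr1a replicate 3, with 2.87, 1.63 and 1.98 CPM in control and 2.48, 3.72 and 13.4 CPM in caBmpr1a libraries. *Fn1*, encoding fibronectin, was at 22.1, 64.4 and 59.4 CPM in control and at 92.2, 99.8 and 78.6 CPM in caBmpr1a libraries, where 7 mesenchymal markers, a cell type rich in this gene, summed to between 134 and 181 and between 223 and 276 CPM. Their part in the *Fn1* values was not tested. *Nupr1*, a stress-response gene, was the member in the lower direction, at 171 ± 23.1 and 95.8 ± 31.7 CPM (log2 fold change -0.83, edgeR adjusted p = 0.314).

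**Figure D4:**
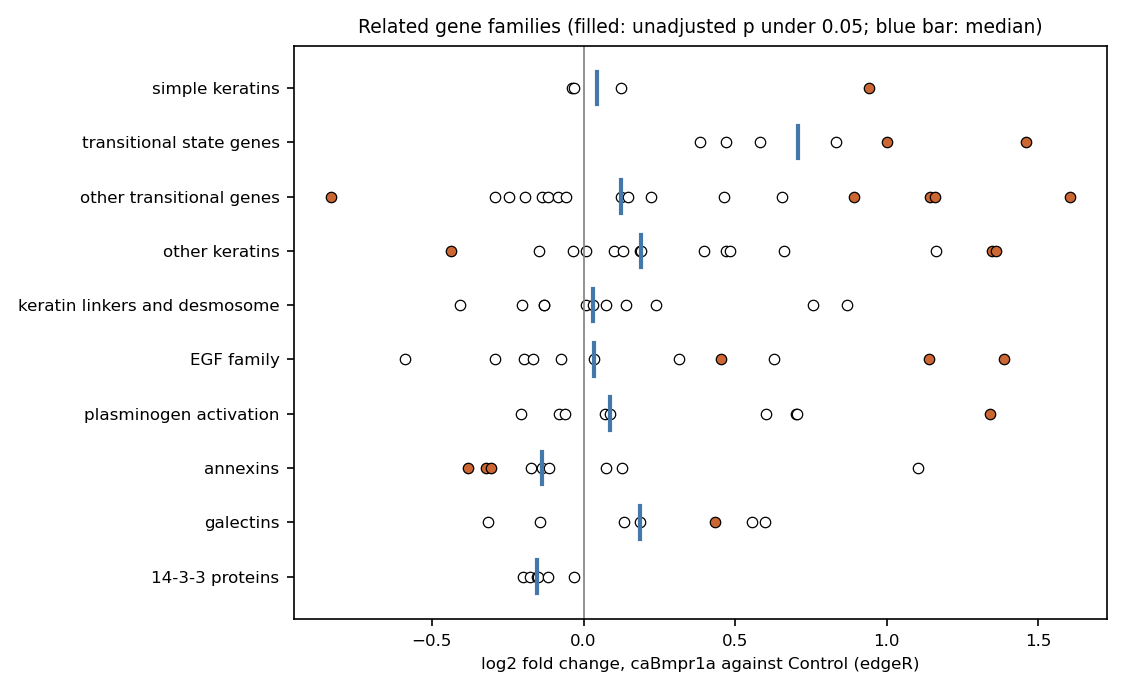
Each point is the log2 fold change (caBmpr1a against control, edgeR) of one tested gene in the list named at the left, filled where the unadjusted p is under 0.05, and the blue bar is the list's median (the galectin list includes *Lgals3bp*). The 6 transitional state genes all lie above 0 with a median of 0.71, and the other lists plotted spread on both sides of 0 except the 14-3-3 proteins, which lie below 0.

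Lying wholly above 0 was not particular to the 6 transitional state genes, as the lists of 6 neutrophil, 5 lymphocyte, 7 endothelial and 7 mesenchymal markers, which are not in that plot, did so too. In the EGF family, 11 of 13 genes around *Areg* and *Hbegf* were tested and none was called, with a median log2 fold change of 0.034. *Adam10*, a protease that releases membrane-anchored ligands, was at 61.8, 80.3 and 89.1 CPM in control and at 140, 193 and 177 CPM in caBmpr1a libraries. The groups were well separated, and its log2 fold change of 1.14 (standard error 0.18) missed the threshold (edgeR adjusted p = 0.0576). *Egf* itself was low, at 1.20 ± 0.127 and 3.14 ± 1.54 CPM (SD, n = 3), and *Rhbdf1*, which helps bring the protease *Adam17* to the surface, was at 78.9 ± 16.0 and 108 ± 24.0 CPM. These 3 were the genes of the family with an unadjusted p under 0.05. Around *Plaur*, 9 of 10 genes of plasminogen activation were tested and none was called (median 0.088).

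Among the relatives of *Anxa1*, *Lgals3* and *Sfn*, none was called. Of 9 other annexins tested, 3 (*Anxa5*, *Anxa6* and *Anxa4*) had an unadjusted p under 0.05 in the lower direction, opposite in sign to the value of *Anxa1*. *Anxa5* was at 198 ± 15.1 CPM in control and 152 ± 18.1 CPM in caBmpr1a libraries (log2 fold change -0.38, edgeR adjusted p = 0.416). The largest annexin value was that of *Anxa8*, at 0.82 ± 0.18 and 1.74 ± 1.80 CPM (log2 fold change 1.10, edgeR adjusted p = 0.677, named after its values were seen). Of 6 other galectins tested, none had an unadjusted p under 0.05, and their log2 fold changes ran from -0.32 to 0.60 with a median of 0.16. *Lgals3bp*, a glycoprotein that binds galectin-3 and is no galectin itself, was at 33.5 ± 6.95 and 45.2 ± 7.93 CPM, with an unadjusted p under 0.05 (edgeR adjusted p = 0.508). The 6 ubiquitous 14-3-3 genes had log2 fold changes below 0 with a median of -0.15 and none past an unadjusted p of 0.05, and *Ywhaz*, the one with the smallest p, was at 328 ± 17.4 and 286 ± 8.64 CPM. *Sfn* therefore stood apart in sign from the other members of its family, a comparison that was not tested.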

How the data were processed

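Sorted, lineage-labeled AT2 cells of 3 control and 3 caBmpr1a mice were sequenced as paired poly(A) libraries. The authors deposited raw read counts for 24421 genes, after read trimming, Hisat2 mapping (mm10), removing duplicates, which can lower strongly expressed genes, and featureCounts 1.5.3 (per the file header, without strand or read pair options, so that mates may count separately and reads of pseudogenes or overlapping genes may be lost). No gene of the table overlapped the exons of the 10 members, but *Krt8* and *Krt18* have processed pseudogenes. Groups and replicate numbers came from the sample titles. Each p-value sets the difference between the groups against the spread between 3 mice per group.

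Counts were scaled by TMM and tested on all 16723 genes that passed edgeR's filter (minimum count 10) with edgeR 4.0.16 (quasi-likelihood, Benjamini-Hochberg adjustment) in R 4.3.3. The standard error is the log2 fold change divided by the root of F, and 95% intervals use its t distribution. CPM per kilobase divides by the exon length given in the table. DESeq2 1.42.0 (named in the methods of the study), limma-voom (limma 3.58.1), other scalings, filters, covariates and sets of libraries were the 19 alternatives, and the scripts were tested on simulated data. For a single gene, an exact permutation test (two-sided) of 3 against 3 cannot go below 0.1. The members, gene lists and alternatives were chosen with earlier results of these data known. From each list, up to 3 genes of smallest unadjusted p under 0.05 are named, or else the 1 of smallest p. One result that this rule would name is not reported here. Intervals and floors cover counting or replicate error only. Same-numbered libraries come from different mice. Coefficients of variation without caBmpr1a replicate 3, the immediate early sum without heat shock genes and the galectins without *Lgals3bp* were added after seeing the data.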

Additional observations from a re-analysis of the deposited data

How the results depend on the processing

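No member was called in 17 of the 19 alternatives. DESeq2 and the covariate for reads on Y-linked genes each called 1 (*Plaur*), and no alternative called a member lower. Over all genes, 38 were called higher and 2 lower, against 119 and 25 with DESeq2, 109 and 34 with the covariate, 25 and 1 with limma-voom, 57 and 5 without the filter, 48 and 8 in the 4 libraries, and from 6 to 59 higher and from 0 to 4 lower with 1 library left out. The cause was not tested. With the replicate number as a block, 0 members were called, their median log2 fold change was 0.50 and 36 genes were higher and 5 lower. The correlations of the deviations of same-numbered libraries were -0.24, 0.20 and -0.53, and 1 of 6 libraries correlated best with its own number. These values show no pairing by number, which so few libraries cannot exclude. The median over the members lay between 0.26 and 0.69 with 1 library left out, lowest without caBmpr1a replicate 3. *Krt7*, *Sfn*, *Lgals3*, *Hbegf*, *Anxa1* and *Plaur* kept their direction in all 19. *Krt8* and *Krt19* turned to 0.059 and 0.041 under upper-quartile scaling, 0.11 and 0.095 when only library size was used (which shifted the median of all genes to 0.12) and 0.044 and 0.031 with a minimum count of 50. *Krt18* and *Areg* turned to -0.071 and -0.17 in the 4 libraries. With 1 library left out, *Krt8* ranged from -0.37 to 0.16, *Krt18* from -0.30 to 0.36, *Krt19* from -0.19 to 0.071 and *Areg* from -0.062 to 0.60. Depth was not limiting for the members, of which *Plaur* had the fewest counts (124 in control replicate 1).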

Other observations

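Markers of alveolar cells themselves were also read in these libraries. Of 10 AT2 markers, 9 had a log2 fold change below 0, none was called, and 4 had an unadjusted p under 0.05 in the lower direction (median -0.30). *Sftpd*, *Sftpa1* and *Lamp3*, which encode surfactant proteins and a lamellar body protein, had all 3 caBmpr1a values below all 3 control values, with log2 fold changes of -0.72, -0.61 and -0.53 (edgeR adjusted p = 0.279, 0.416 and 0.461). For each of them caBmpr1a replicate 3 was the lowest library. Of 10 AT1 markers, 8 were above 0 (median 0.33) and none was called, with *Rtkn2* at 0.84 and *Aqp5* at -0.53 as the ones with an unadjusted p under 0.05.

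Markers of other cells gave these values. Of 8 airway markers 1 was called higher, *Tppp3* (log2 fold change 1.85, edgeR adjusted p = 0.0165), and *Cyp2f2* was at -0.53 (edgeR adjusted p = 0.19). The median was 0.35 for 6 mesothelial markers (*Lrrn4* 0.86), 0.74 for 8 macrophage and monocyte markers (*C1qb* 0.98), 1.15 for 6 neutrophil markers (*Csf3r* 1.19), 0.38 for 5 lymphocyte markers (*Cd3e* 0.51), 0.63 for 7 endothelial markers (*Cldn5* 0.74, *Emcn* 0.89, *Cdh5* 0.69) and 0.64 for 7 mesenchymal markers (*Col1a1* 0.70, *Col1a2* 0.64, *Col3a1* 0.77). No gene of these 6 lists was called. *Dusp1*, an immediate early gene, was at 0.42 (edgeR adjusted p = 0.448).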
